A study of Mus musculus with 40 samples.

Results

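PU.1 binding was compared between macrophages of the mouse strains C57BL6/J and BALBc/J, locus by locus. The members are 50770 of the 101705 loci formed by joining, at 1 bp of overlap, the peaks of 4 deposited PU.1 lists. Of these, 43902 held a peak in all 4 lists (shared loci), 2898 held one in both C57BL6/J lists and neither BALBc/J list, and 3970 held one in both BALBc/J lists and neither C57BL6/J list. The other 50935 loci had mixed patterns and were not used.

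The cells were peritoneal macrophages that thioglycollate broth, an irritant, had brought into the cavity, and they were kept overnight in culture before use. One group of each strain received fresh medium alone (no treatment), and the other received medium with 100 ng/ml of Kdo2-lipid A (KLA), a ligand of Toll-like receptor 4, for 1 hr. PU.1 was measured by ChIP-Seq, which sequences the DNA bound by an antibody's target in formaldehyde-fixed cells. Each strain and treatment had 1 PU.1 library, so the 2 treatments stood in for the replicates of a strain. C/EBPa and the histone marks H3K4me2 and H3K27Ac had the same 4 groups. The NF-kB subunit p65 had 2 libraries per strain after KLA, GRO-Seq (RNA still on the polymerase) had the 4 groups, and RNA-Seq also had KLA for 4 hr. The age and sex of the mice, and whether libraries came from separate animals, are not given in the sources used here. Every p-value speaks only for these libraries, and those of PU.1 and GRO-Seq rest on a spread pooled over all loci or genes.

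PU.1 is an ETS-family transcription factor that macrophages need in order to form. It binds purine-rich DNA with a GGAA core, often beside other lineage factors such as C/EBPa, and many of its sites lie in enhancers that carry H3K4me2. Inbred strains differ in DNA sequence, and a comparison of strains asks where such a factor binds one genome more than the other.

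Depth was 7.805 to 9.232 M tags over the 4 PU.1 libraries, 34.92% to 37.4% fell into peaks, and each list held 67074 to 71158 peaks. Values are given as tags per 10 M, the number of tags in a peak scaled to 10 M tags at distinct positions, and the weakest listed peak rested on 7 or 8 tags. Transcripts of the factor itself had close levels: Sfpi1, the gene of PU.1, stood at 3595, 3737 and 6449 RNA-Seq tags per 10 M in C57BL6/J (no treatment, KLA 1 hr, KLA 4 hr) and at 3917, 3805 and 5256 in BALBc/J, a fitted difference of 0.05 ± 0.14 (log2, SE; limma adjusted p = 0.915). The macrophage genes Emr1 (1678 to 3647) and Cd68 (11660 to 14650) were present in all 6 RNA-Seq libraries. Markers of other cells were low but not at 0: their summed RNA level ranged in C57BL6/J and BALBc/J over 3.53 to 186.0 and 9.72 to 234.0 for T and NK cells, 36.5 to 49.5 and 46.0 to 70.7 for B cells, 133.0 to 341.0 and 78.0 to 148.0 for neutrophils, and 42.6 to 431.0 and 37.8 to 357.0 for mast cells. The highest T and NK cell sums were Lck after KLA for 4 hr (186.0 and 234.0). Cd3e, Cd3g and Ncr1 were at 1.62 or less in every library. The highest mast cell sums were mostly Hdc at 4 hr (423.0 and 344.0), when Cpa3 was at 5.43 and 4.03. Nearly all of the neutrophil sums was S100a8, with S100a9 and Elane at 1.77 or less. Markers of mesothelial cells and fibroblasts summed to 611.0 to 1340.0 in C57BL6/J and 1230.0 to 1970.0 in BALBc/J, and Col1a1 and Upk3b were called higher in BALBc/J. Of the 10 such markers tested these 2 were called, and their part in the PU.1 differences was not tested.

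Promoter sequences of 4 genes are shown because a PU.1 locus that differs between strains, described below, lies within 1000 bp of the transcription start. They are RefSeq bases just before the start, in the gene's direction, on build GRCm38.p6 (the peak lists use the older build mm9, so coordinates of these builds cannot be compared). This assembly is of C57BL/6J, and the BALBc/J sequence was not used here. Capitals mark matches to short words with the GGAA core that ETS factors share, GAGGAA or GGAAGT and, on the other strand, TTCCTC or ACTTCC, and are not shown to be PU.1 sites. The words overlap in GAGGAAGT, which occurs in none of these 4 windows on either strand.

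C1qb promoter, chr4:136886201-136886450, minus strand: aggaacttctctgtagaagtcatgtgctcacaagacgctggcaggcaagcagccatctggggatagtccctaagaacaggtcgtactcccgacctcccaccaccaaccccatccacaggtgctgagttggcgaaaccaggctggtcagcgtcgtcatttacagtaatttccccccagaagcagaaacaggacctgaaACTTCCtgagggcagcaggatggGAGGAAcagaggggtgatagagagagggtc
Mapk8ip3 promoter, chr17:24936978-24937227, minus strand: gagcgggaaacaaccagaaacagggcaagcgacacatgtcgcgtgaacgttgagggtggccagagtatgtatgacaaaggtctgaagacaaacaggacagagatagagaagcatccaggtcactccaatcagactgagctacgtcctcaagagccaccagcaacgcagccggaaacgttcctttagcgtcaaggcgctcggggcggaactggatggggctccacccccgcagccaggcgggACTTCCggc
Creb3 promoter, chr4:43562584-43562657, plus strand, the 74 bases between the starts of Tln1 and Creb3: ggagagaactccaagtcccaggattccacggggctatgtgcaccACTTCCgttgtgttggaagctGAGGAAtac
B2m promoter, chr2:122147437-122147686, plus strand: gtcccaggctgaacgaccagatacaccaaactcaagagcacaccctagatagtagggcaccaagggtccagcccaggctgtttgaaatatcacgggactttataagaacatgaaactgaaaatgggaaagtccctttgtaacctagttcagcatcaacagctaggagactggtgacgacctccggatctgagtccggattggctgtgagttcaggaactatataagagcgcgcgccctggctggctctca

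Matches began 53 and 30 bases before the start of C1qb, 9 before that of Mapk8ip3, and 30 and 9 before that of Creb3, and these words do not occur in the B2m window. Among 32851 RefSeq promoter windows of 250 bases, 36.7% held either word and 2.44% held GAGGAAGT. Among genes with 1 window and a PU.1 locus within 1000 bp of the start, either word was found at 47.7% of 3908 with a shared locus that was not called, 7 of 14 with one higher in C57BL6/J, 5 of 11 with one higher in BALBc/J, 39.8% of 244 with a locus in the C57BL6/J lists only, and 34.8% of 247 with a locus in the BALBc/J lists only. Over all genes with 1 window the share was 36.9% of 22862.

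Most shared loci had close values in both strains. Since they needed a peak in all 4 lists, loci without a peak in 1 strain are not in this spread. Differences are given as C57BL6/J minus BALBc/J on the log2(tags per 10 M + 1) scale, fitted with limma with terms for strain and treatment. The median was -0.04, 5% to 95% of loci lay between -0.61 and 0.50, and 87.19% lay within 0.5 of 0. Calls needed a limma adjusted p under 0.05 together with a difference of 1 or more in size. They comprised 357 loci with more PU.1 in C57BL6/J (0.813% of 43902) and 557 with more in BALBc/J (1.27%), 2.08% in all. Across the 43902 loci the strain difference without treatment and that after KLA had a Pearson r of 0.41, a description of loci that share libraries. Within each treatment the difference had the same sign at 913 of the 914, and the strains' values did not overlap at 345 of the 357 and 532 of the 557, which follows from how calls are made and is a description. Over all 43902 shared loci the sign was the same at 57.4%, and the strains' values did not overlap at 26.7% (11722). Differences of 2 or more on the log2 scale were found at 37 loci with more PU.1 in C57BL6/J and 42 with more in BALBc/J. Called loci were of ordinary strength, with a median 4-library mean of 51.48 (loci with more in C57BL6/J) and 49.15 (loci with more in BALBc/J) against 57.83 for all shared loci.

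**Figure D1:**
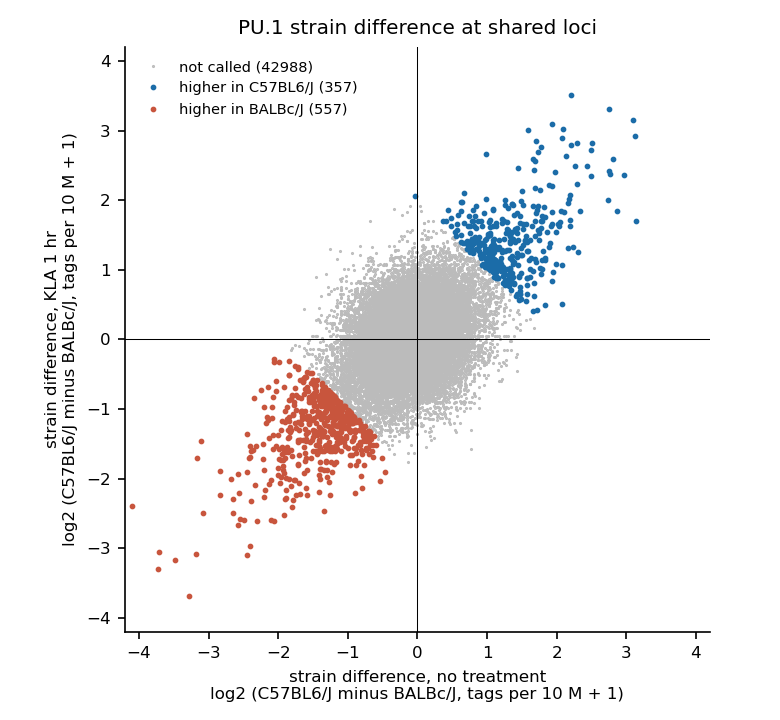
Strain difference of PU.1 at 43902 shared loci without treatment (x axis) and after KLA for 1 hr (y axis), both as log2 of C57BL6/J minus BALBc/J with 1 tag per 10 M added. Each point is a locus; the 357 blue points (more PU.1 in C57BL6/J) and 557 red points (more in BALBc/J) lie in opposite corners, and the grey points are loci that were not called.

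These calls rest on comparing libraries within a treatment and on a spread pooled over loci, since each locus left 1 residual degree of freedom. In this fit the pooled spread had full weight, so an SE is not the spread measured at its own locus. With 1 library per strain and treatment, that spread is the change of the strain difference between treatments, not one between replicates. Without the treatment term limma called 0 loci (585 with more PU.1 in C57BL6/J and 915 in BALBc/J at an unadjusted p under 0.05). Leaving out 1 library, which left strain as the only term, gave 0 and 0 without either BALBc/J library (unadjusted, 755 and 495 without the untreated one, 390 and 883 without the KLA one), 6 and 15 without the untreated C57BL6/J library, and 0 and 8 without the C57BL6/J one after KLA. DESeq2 called 69 and 68, all among the 914.

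More loci were called for treatment than for strain in the same fit: 1937 loci were higher after KLA (4.41%) and 1397 lower (3.18%), 7.59% in all. Loci called between strains held similar shares of these. Of the 357 higher in C57BL6/J, 11 (3.08%) were called higher and 10 (2.8%) lower after KLA, and of the 557 higher in BALBc/J, 31 (5.57%) and 18 (3.23%).

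Most of the largest differences were seen away from promoters, an exception being that at Mapk8ip3 described with the promoters, and several of these loci carried other factors in the same strain only. At chr8:124401077-124401505 (mm9), 30.3 kb from the start of Slc7a5, a transporter of large neutral amino acids, PU.1 was at 204.7 and 234.2 tags per 10 M in C57BL6/J (no treatment, then KLA) and at 23 and 25.4 in BALBc/J. Both C57BL6/J libraries were far above both BALBc/J libraries, a difference of 3.13 ± 0.20 (log2, SE; limma adjusted p = 3.47e-49). C/EBPa (22.0 and 41.9 tags per 10 M) and p65 (71.7 and 75.8) had peaks there in the C57BL6/J lists and in none of BALBc/J, and H3K4me2 regions were listed in C57BL6/J only. RNA of Slc7a5 had the opposite sign and was not called, at -0.60 ± 0.16 (limma adjusted p = 0.0567).

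In the other direction the leading locus lay at chr8:86944520-86944770 (mm9), 5.382 kb from the start of Cacna1a, which codes for the pore of a voltage-gated calcium channel. PU.1 was at 19.4 and 26.4 in C57BL6/J and at 269.7 and 268.3 in BALBc/J, a difference of -3.51 ± 0.20 (limma adjusted p = 1.7e-67). C/EBPa peaks were listed in BALBc/J only (85.9 and 67.2), and p65 was at 16.0 and 10.3 in C57BL6/J against 310.1 and 195.8 in BALBc/J. Here RNA went the same way: Cacna1a stood at 19.43, 15.43 and 9.87 RNA-Seq tags per 10 M in C57BL6/J and at 175.3, 111.8 and 56.36 in BALBc/J, -2.22 ± 0.20 (log2 of tags per 10 M + 10; limma adjusted p = 0.000725). Nascent RNA by GRO-Seq differed by -2.54 ± 0.33 (limma adjusted p = 7.12e-12). RNA of Cacna1a was low in C57BL6/J, so the fold on this scale is an understatement.

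Among the other leading loci higher in C57BL6/J were those nearest to Pigu, a subunit that attaches lipid anchors to proteins (233.7 and 127.0 against 26.0 and 15.9 in BALBc/J), and the uncharacterised AI197445 (152.1 and 209.5 against 32.2 and 17.5). The locus 11.04 kb from G530011O06Rik on the X chromosome was at 88.5 and 89.1 against 12.3 and 15.9. RNA of G530011O06Rik was also higher in C57BL6/J, by 2.06 ± 0.27 (limma adjusted p = 0.0034), as was its nascent RNA, by 2.72 ± 0.34 (limma adjusted p = 1.08e-12). At the locus 12.83 kb from Epb4.1l1, a membrane-skeleton protein (99.6 and 89.1 against 16.9 and 12.7), C/EBPa was at 132.3 and 93.4 in C57BL6/J and unlisted in BALBc/J.

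Loci higher in BALBc/J included those nearest to 4930528F23Rik (27.7 and 18.1 in C57BL6/J against 278.9 and 244.4), Txn2, the mitochondrial thioredoxin (15.2 and 26.4 against 211.4 and 227.0), Hs3st6, a heparan sulfate sulfotransferase (15.2 and 18.1 against 180.8 and 171.4), and Nmb, the neuropeptide neuromedin B (23.5 and 23.1 against 220.6 and 203.2). At 4930528F23Rik, C/EBPa (145.5 and 90.2) and p65 (82.0 and 60.4) were listed in BALBc/J only. At Hs3st6 and Nmb neither factor was listed in any library. RNA of Txn2 differed by 0.02 ± 0.15 (limma adjusted p = 0.974).

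**Figure D2:**
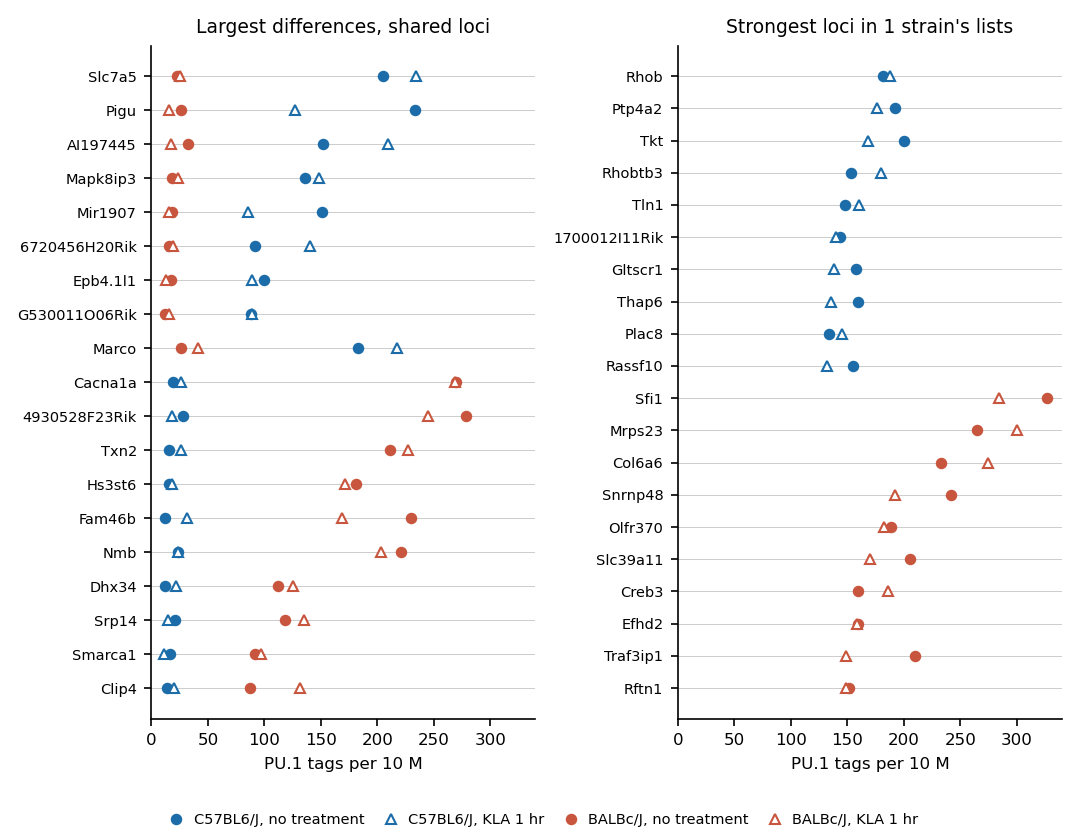
PU.1 tags per 10 M in each library at the shared loci with the largest differences in each direction, up to 10 each (left) and the 10 strongest loci per strain listed in that strain only (right), named by the nearest gene. Circles are cells without treatment, triangles KLA for 1 hr, blue C57BL6/J and red BALBc/J; at every locus on the left the strains' values are separate.

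Differences at promoters were fewer. Within 1000 bp of a transcription start lay 18.14% of uncalled shared loci, but 5.882% (21) of those higher in C57BL6/J, 4.129% (23) of those higher in BALBc/J, 14.39% of C57BL6/J-only and 11.26% of BALBc/J-only loci. The median distance to a start was 14.86 kb for uncalled shared loci, 24.94 and 29.86 kb for the called, and 17.92 and 22.7 kb for the one-strain loci.

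The clearest promoter with matching RNA was that of C1qb, which codes for a chain of C1q, the first component of the classical complement pathway. At chr4:136441953-136442164 (mm9), 34 bp from the start, PU.1 was at 240.6 and 259.0 tags per 10 M in C57BL6/J and 87.3 and 46.0 in BALBc/J, a difference of 1.96 ± 0.15 (limma adjusted p = 6.56e-36). In the 2 p65 replicates after KLA, p65 there was at 174.7 and 168.2 in C57BL6/J and at 23 and 11.3 in BALBc/J. H3K4me2 was at 352.0 and 326.0 tags per kb (no treatment, then KLA) against 104.0 and 75.9. RNA of C1qb stood at 6448, 6598 and 6858 tags per 10 M in C57BL6/J and at 597.7, 781.4 and 406.0 in BALBc/J, 3.51 ± 0.19 (limma adjusted p = 7.16e-05), and nascent RNA differed by 1.57 ± 0.33 (limma adjusted p = 0.000565). RNA of the neighbouring C1qc (2.76 ± 0.16) and C1qa (2.09 ± 0.17), which code for the other chains, was also called higher in C57BL6/J. PU.1 at the starts of C1qc (0.47 ± 0.10) and C1qa (0.90 ± 0.15) had the same sign but was under the size needed for a call. The window printed above holds the matches of the C1qb promoter.

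At other promoters RNA differed in some cases only. At chr17:25073865-25074113 (mm9), 66 bp from the start of Mapk8ip3, a scaffold of JNK kinases, PU.1 was at 135.5 and 148.4 in C57BL6/J and 18.4 and 23.8 in BALBc/J (2.70 ± 0.24). Both histone marks were listed there in every library, and RNA of Mapk8ip3 differed by -0.24 ± 0.19 (limma adjusted p = 0.57). The promoter of Agmo, an ether-lipid cleaving enzyme, was at 150.7 and 143.5 against 33.7 and 22.2, and its RNA differed by 0.83 ± 0.18 (limma adjusted p = 0.0285), under the size needed for a call. Higher in BALBc/J were the promoters of Zfp462, a zinc finger gene (13.8 and 21.4 against 104.2 and 82.5), Nrf1, a regulator of mitochondrial genes (23.5 and 11.5 against 104.2 and 74.6), and Telo2, which stabilises large kinases (33.2 and 24.7 against 85.8 and 141.3). RNA of Zfp462 was higher in BALBc/J (-1.75 ± 0.16, limma adjusted p = 0.000715), while that of Nrf1 differed by -0.10 ± 0.15 (adjusted p = 0.807) and that of Telo2 by -0.49 ± 0.18 (adjusted p = 0.15).

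The loci listed in 1 strain only were mostly weak. Their median value was 19.4 and 19.8 tags per 10 M (no treatment, KLA) in the C57BL6/J lists and 19.9 and 19.0 in the BALBc/J lists, near the lowest listed values of 11.1 to 12.3, against 54.0 to 61.3 for shared loci. These values follow from how the loci were chosen and are a description. Among loci in both lists of a strain whose lower value was under 20, 16.85% (C57BL6/J) and 22.7% (BALBc/J) were in neither list of the other strain. That share was 1.573% and 1.925% between 40 and 80, and 0.07601% and 0.1475% at 160 or more, which is 3 loci in C57BL6/J and 6 in BALBc/J. BALBc/J-only loci outnumbered C57BL6/J-only loci 1.37 to 1. Taking 1 treatment alone raised the counts to 11949 and 15001 (no treatment) or 14439 and 16279 (KLA), and asking for both values to reach 20 lowered them to 1023 and 1334.

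**Figure D3:**
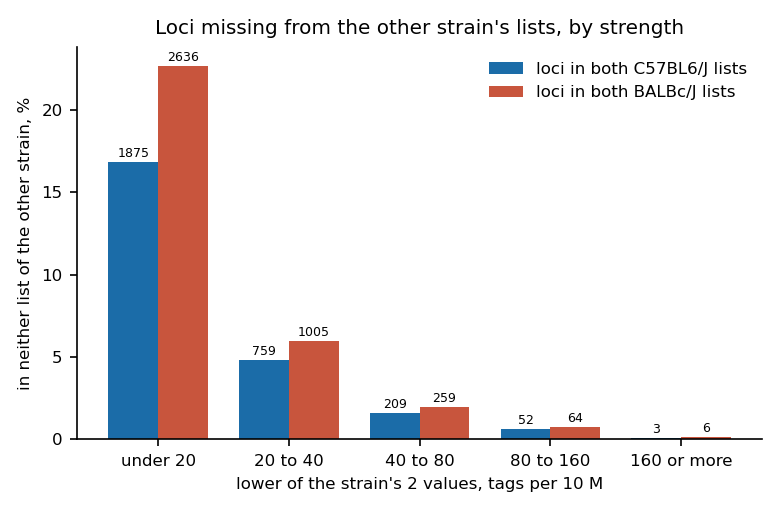
Percent of the loci in both lists of a strain that were in neither list of the other strain, by the lower of the strain's 2 values (tags per 10 M), with the number of such loci over each bar. The share falls from 16.85% (C57BL6/J) and 22.7% (BALBc/J) under 20 to under 1% from 80 upwards.

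The strongest C57BL6/J-only loci lay near Rhob, a small GTPase (181.2 and 188.0), Ptp4a2, a phosphatase (192.2 and 176.5), Tkt, the enzyme transketolase of the pentose phosphate pathway (200.5 and 168.2), and Rhobtb3 (153.5 and 179.8). The Rhob locus, 49.23 kb from the start, also had p65 (164.9 and 141.3), C/EBPa and both histone marks in C57BL6/J lists only, and the nearest BALBc/J PU.1 peak was 13.17 kb away. RNA of Tkt was higher in C57BL6/J by 1.05 ± 0.16 (limma adjusted p = 0.00698), and that of Rhob differed by 0.48 ± 0.23 (adjusted p = 0.295). A C57BL6/J-only locus 15.02 kb from Plac8 (134.1 and 145.1) went with RNA in the other direction, -1.60 ± 0.21 (limma adjusted p = 0.00358).

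Strongest among the BALBc/J-only loci was one 242 bp from the start of Sfi1, a centriole protein (326.4 and 284.1). Its input control held 23 tags, against 0.6 to 5.0 at the other strongest one-strain loci in the plot, and its fold over input was 14.82 and 11.83. The part of this background in the peak was not tested. RNA of Sfi1 was higher in BALBc/J (-1.12 ± 0.16, limma adjusted p = 0.00566). The locus 17.66 kb from Mrps23, a mitochondrial ribosomal protein (265.1 and 300.0), had C/EBPa (254.3 and 280.3), p65 (192.1 and 115.2) and both marks in BALBc/J lists only, with RNA at 0.06 ± 0.17 (adjusted p = 0.907). The locus near Col6a6, a collagen chain, was at 232.9 and 274.6, with no C57BL6/J peak within 137.2 kb.

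Some one-strain loci lay close to a peak of the other strain, though the distances were not compared with the usual spacing of peaks. The nearest peak of the other strain lay at a median of 3.334 kb from C57BL6/J-only loci and 4.58 kb from BALBc/J-only loci, and 267 (9.213%) and 323 (8.136%) had one within 500 bp, centre to centre. Among those with both values at 40 or more, 74 of 264 (28.03%) and 59 of 329 (17.93%) did. In 114 cases a C57BL6/J-only and a BALBc/J-only locus faced each other within 500 bp, at a median of 322 bp, so that each strain had a peak and neither overlapped. HOMER kept peaks at least 400 bp apart within a list, per the file headers, and whether such a pair is 1 site with a shifted peak was not tested.

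The strongest such pair lies in the promoter shared by Tln1, the adhesion protein talin, and Creb3, a membrane-bound transcription factor. In C57BL6/J the peak was at chr4:43575009-43575218 (mm9), 342 bp inside Tln1 (148.0 and 160.0), and in BALBc/J it was at chr4:43575398-43575598, 8 bp before the start of Creb3 (159.3 and 185.7), 384 bp from the first. Both marks were listed there in every library. RNA of neither gene was called, at 0.22 ± 0.21 for Tln1 (limma adjusted p = 0.657) and -0.15 ± 0.16 for Creb3 (limma adjusted p = 0.701). A pair chosen after its values were seen flanks the start of B2m, the light chain of class I MHC: the C57BL6/J peak (31.8 and 28) lay at chr2:121973623-121973834 and the BALBc/J peak (23 and 34.9) at chr2:121973215-121973439, 402 bp apart. Another, likewise chosen, lies at the start of Cd48 on chromosome 1, a receptor of the SLAM family, with 58.1 and 61.0 in C57BL6/J and 30.6 and 30.2 in BALBc/J, 308 bp apart. The printed Creb3 window, upstream of the start, holds 2 matches, and the B2m window holds none.

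C/EBPa, a partner factor read from its own libraries, was called mostly in the same direction as PU.1 where both were tested and C/EBPa was called. Over all 24747 loci with C/EBPa in its 4 lists, 147 had a call for C57BL6/J (0.594%) and 489 for BALBc/J (1.98%). Where PU.1 was called higher in C57BL6/J, 21 of 68 tested C/EBPa loci were called higher in C57BL6/J and 0 in BALBc/J, with a median of 0.77. Where PU.1 was higher in BALBc/J, 0 and 41 of 86 were called, with a median of -1.04, against -0.17 for all C/EBPa loci. At C57BL6/J-only PU.1 loci 22 of 266 were called higher in C57BL6/J and 2 in BALBc/J, with a median of -0.09, below 0 although most calls were for C57BL6/J. At BALBc/J-only loci 1 and 48 of 336 were called, with a median of -0.26. With each library centred on its median the calls were 256 and 306 over all loci, 29 and 0 of 68, 0 and 33 of 86, 26 and 1 of 266, and 1 and 35 of 336, so most calls at PU.1 loci again had the direction of PU.1. Leaving out any 1 library left 1 to 3 and 0 to 9 calls over all loci, from a fit with strain as its only term.

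Binding of p65, the NF-kB subunit that enters the nucleus after Toll-like receptor signalling, was measured after KLA only. Of 36849 loci in its 4 lists 596 had a call for C57BL6/J (1.62%) and 226 for BALBc/J (0.613%), with a median difference of 0.32. Where PU.1 was higher in C57BL6/J, 31 of 71 were called higher in C57BL6/J and 0 in BALBc/J (median 1.34). Where PU.1 was higher in BALBc/J, 0 and 27 of 143 were called (median -0.73). The C57BL6/J-only loci gave 27 and 1 of 304 (median 0.42), and the BALBc/J-only loci 2 and 35 of 442 (median 0.12, above 0 although most calls were for BALBc/J). Centring changed the counts over all loci to 131 and 248 and gave 12 and 0 of 71, 0 and 33 of 143, 10 and 1 of 304, and 0 and 34 of 442. The counts over all loci were 165 and 54 without C57BL6/J replicate 1, 78 and 69 without C57BL6/J replicate 2, and 2204 and 504 with the replicate number as a block.

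**Figure D4:**
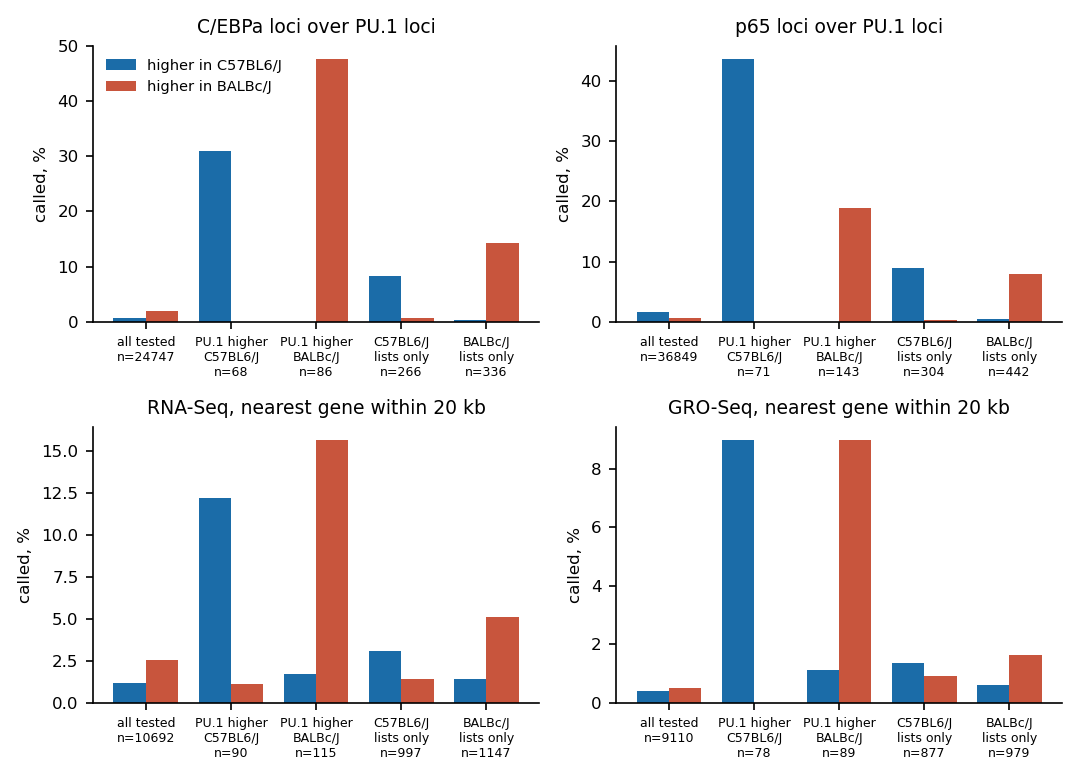
Percent of tested C/EBPa loci, p65 loci and nearest genes (RNA-Seq and GRO-Seq, start within 20 kb) called higher in C57BL6/J (blue) or BALBc/J (red), over all tested and over those at PU.1 loci of each class, with n tested under each pair of bars. In all 4 panels the taller bar at loci with higher PU.1 in a strain is that strain's, for instance 12.2% of 90 genes against 1.11%.

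The same was seen in which lists held a factor or mark at all. At the 357 loci with more PU.1 in C57BL6/J, p65 was in both C57BL6/J lists and neither BALBc/J list at 87 (24.37%) and the reverse at 0, and H3K4me2, within 500 bp, at 67 (18.77%) and 2. At the 557 with more PU.1 in BALBc/J, p65 was in both BALBc/J lists only at 45 (8.079%) and in C57BL6/J only at 2, and H3K4me2 at 93 (16.7%) and 1. At uncalled shared loci p65 was in C57BL6/J lists only at 3.043% and in BALBc/J lists only at 0.335%, a lean to C57BL6/J, and the H3K4me2 shares were 1.331% and 1.189%. All p65 lists, those of BALBc/J too, were called against an input of C57BL6/J, and its part in these counts was not tested. H3K27Ac, a mark of active enhancers and promoters, was listed in C57BL6/J only at 30 of the 357 and in BALBc/J only at 46 of the 557, with 1 and 0 the other way, against 0.7374% and 0.8374% of uncalled shared loci. C57BL6/J-only PU.1 loci had H3K4me2 in C57BL6/J only at 292 and in BALBc/J only at 21, and BALBc/J-only loci at 26 and 401.

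H3K4me2 regions were listed in all 4 libraries at 169 of the 357 (47.34%) and 228 of the 557 (40.93%), against 71.14% of uncalled shared loci. At the loci with regions in all 4, their density (tags per kb) differed in the median by 0.38 and 0.38 (log2; no treatment, KLA) at the first and by -0.47 and -0.48 at the second, against 0.01 and 0.04 at uncalled loci. H3K27Ac densities differed by 0.51 and 0.37 at 38 loci and by -0.13 and -0.07 at 52, against a shift of 0.28 and 0.16 at uncalled loci. These densities have no replicate within a treatment and were not tested.

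Genes whose start was nearest to a PU.1 locus and within 20 kb were read in RNA-Seq. Of 10692 genes tested 127 had a call for C57BL6/J (1.19%) and 269 for BALBc/J (2.52%). Beside loci with more PU.1 in C57BL6/J, 11 of 90 genes were called higher in C57BL6/J (12.2%) and 1 in BALBc/J, and beside loci with more PU.1 in BALBc/J, 2 of 115 and 18 (15.7%). Most of these genes were thus not called. Beside one-strain loci the shares were nearer the background, with 31 of 997 (3.11%) higher and 14 lower for C57BL6/J-only loci, and 16 higher and 59 of 1147 (5.14%) lower in C57BL6/J for BALBc/J-only loci. Genes beside uncalled shared loci gave 93 and 142 of 8410. A gene with loci of several classes was counted in each, so these sets of genes overlap. Centring changed the calls to 166 and 217 over all genes, and to 15 and 1, 2 and 16, 40 and 10, and 23 and 50 in those classes.

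Nascent RNA gave fewer calls: 38 of 9110 genes had a call for C57BL6/J (0.417%) and 45 for BALBc/J (0.494%). Beside loci with more PU.1 in C57BL6/J 7 of 78 were called higher in C57BL6/J and 0 in BALBc/J, and beside loci with more in BALBc/J 1 and 8 of 89. C57BL6/J-only loci had 12 and 8 of 877, and BALBc/J-only loci 6 and 16 of 979. Centring moved the calls over all genes to 87 and 28 and these to 11 and 0, 1 and 7, 26 and 5, and 13 and 14, so the balance beside BALBc/J-only loci was lost. Leaving out any 1 GRO-Seq library, with strain as the only term, left 0 calls for C57BL6/J and 0 or 1 for BALBc/J over all genes (limma; 23 to 60 and 24 to 434 at an unadjusted p under 0.05).

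The genes with the largest RNA differences showed no single pattern of PU.1. Hal, which codes for histidine ammonia-lyase, stood at 81.27, 78.75 and 52.8 RNA-Seq tags per 10 M in C57BL6/J and at 3636, 3793 and 1049 in BALBc/J (-4.94 ± 0.26, limma adjusted p = 6.2e-05). PU.1 at its start did not pass the test (77.4 and 44.5 against 95 and 61.9, -0.38 ± 0.21), but a locus 5.46 kb inside was at 12.4 and 19.8 against 119.5 and 66.7 (-2.44 ± 0.28, limma adjusted p = 3.02e-15), and 2 loci upstream were in BALBc/J lists only. Arg2, the mitochondrial arginase, had loci called higher in BALBc/J at 7.37 and 10.2 kb and a C57BL6/J-only locus at 10.9 kb, with RNA at -4.16 ± 0.29. By contrast Vill, Gdf15, Gdf3, H2-Q6 and Atp6v0e2 had only uncalled shared loci within 20 kb (3, 5, 6, 1 and 3 of them), although their RNA differed by 4.06, 3.68, 2.76, -4.48 and -4.19. Some of these loci differed by less than the size needed for a call. A locus of Atp6v0e2 (-0.95 ± 0.21, limma adjusted p = 0.000326) and one of Vill (0.82 ± 0.20, limma adjusted p = 0.00247) had the sign of the RNA. A Gdf15 locus had the opposite sign (-0.69 ± 0.19, limma adjusted p = 0.0118). H2-Ea-ps, a class II MHC gene, had 4 uncalled loci and 1 in the C57BL6/J lists only, while its RNA was higher in BALBc/J (-5.66 ± 0.16). H2-Q6 and Ifi202b belong to families of near-identical genes whose reads may be shared.

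Gene lists were described by the PU.1 loci nearest to their members within 100 kb, where 14.64% of 45492 loci differed between strains (called, or listed in 1 strain only). Macrophage identity genes were near that figure: of 224 loci 5 were called higher in C57BL6/J, 0 in BALBc/J, 17 were C57BL6/J-only and 8 BALBc/J-only (13.39%). RNA was called higher in C57BL6/J for 2 of the 34 genes and in BALBc/J for 1. Over all 10692 genes tested these shares were 1.19% and 2.52%, the background for the RNA counts of every list. Marco, a scavenger receptor for bacteria, had 7 member loci, all on the C57BL6/J side: a shared locus at chr1:122346224-122346449 (mm9) was at 182.5 and 217.7 against 26.0 and 41.3 (2.57 ± 0.19, limma adjusted p = 3.89e-37), another was called at 2.21 ± 0.28, and 5 were C57BL6/J-only. Its RNA was at 94.23, 71.83 and 128.8 in C57BL6/J and 7.80, 7.02 and 4.03 in BALBc/J (2.71 ± 0.22, limma adjusted p = 0.0004). Csf1r, the receptor of the growth factor that macrophages live on, had a locus 22.24 kb from its start at 52.5 and 57.7 against 19.9 and 14.3 (1.65 ± 0.30), with RNA at 0.62. Mertk, a receptor for the uptake of dying cells, had 1 called locus (55.3 and 52.8 against 27.6 and 19.0, 1.20 ± 0.29, limma adjusted p = 0.00151) and 1 C57BL6/J-only locus among 10, with RNA at 1.33 ± 0.30 (adjusted p = 0.0322).

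C-type lectins and scavenger receptors had 28.92% of 83 loci different (2 higher in C57BL6/J, 9 C57BL6/J-only, 13 BALBc/J-only), of which Marco held 7 and Colec12 held 8. Colec12, a scavenger receptor with a collagen-like stalk, had no shared locus: all 8 of its member loci were BALBc/J-only, with values from 20.6 to 130.2. Its RNA was at 334.5, 334.1 and 193.0 in C57BL6/J and 4502, 4069 and 2775 in BALBc/J (-3.69 ± 0.14, limma adjusted p = 1.19e-05), and its nascent RNA differed by -2.12 ± 0.33. Cd5l, a secreted protein of tissue macrophages, had 2 C57BL6/J-only loci (56.7 and 46.2; 33.2 and 21.4) and 2 BALBc/J-only loci (105.7 and 69.8; 154.8 and 68.3), while its RNA was higher in C57BL6/J (2.55 ± 0.14, adjusted p = 6.45e-05).

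**Figure D5:**
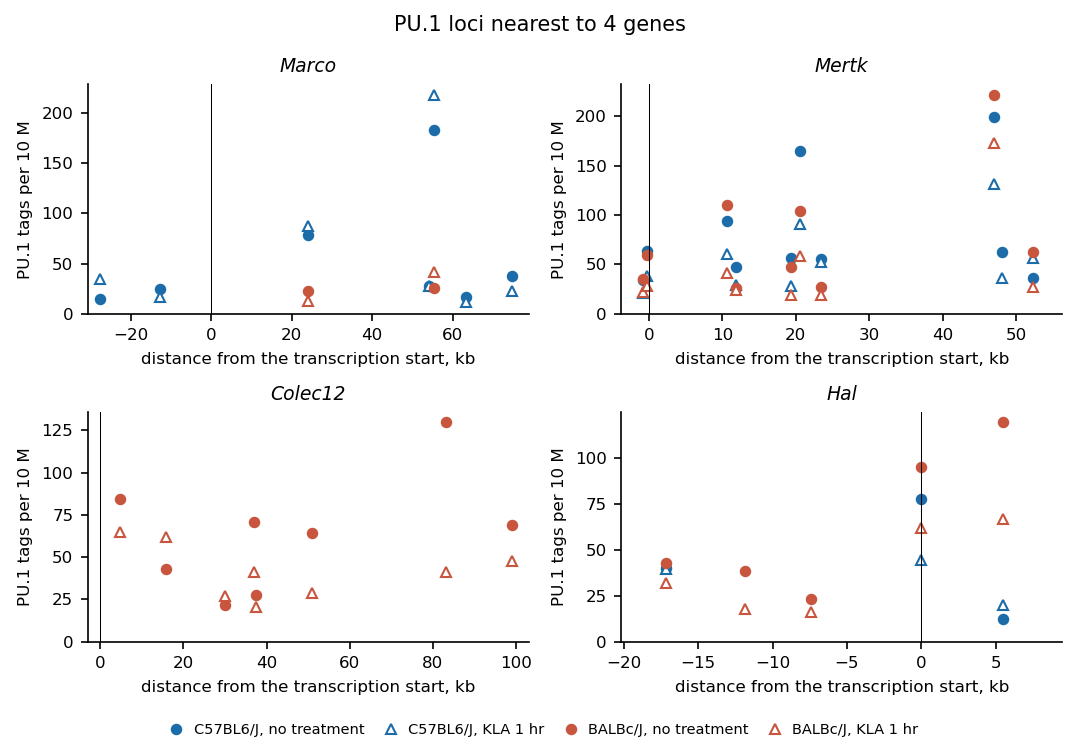
PU.1 tags per 10 M at the member loci nearest to Marco, Mertk, Colec12 and Hal, 4 genes chosen after their values were seen, against the distance from the transcription start in kb. Circles are cells without treatment, triangles KLA for 1 hr, blue C57BL6/J and red BALBc/J; a locus without points of a colour has no peak in that strain's lists, as at all 8 loci of Colec12.

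Genes of the interferon response had 19.63% of 107 loci different, 6 called higher in BALBc/J and 0 in C57BL6/J, with 14 BALBc/J-only and 1 C57BL6/J-only. Many of these lie in 1 stretch of chromosome 1, 175331519 to 175908054 bp (mm9), beside Aim2, Ifi204, Ifi203 and Ifi202b. The calls beside Aim2, Ifi204 and Ifi202b are among them, so the lean to BALBc/J is not spread evenly over the list. At Cxcl11, a chemokine for T cells, a locus 12.24 kb from the start was at 56.7 and 51.1 against 151.7 and 152.4 (-1.48 ± 0.18), with RNA at -1.15 (adjusted p = 0.123). Ifi202b, of the interferon-inducible p200 family, had a locus at 59.5 and 66.0 against 148.6 and 146.0 (-1.22 ± 0.17) and a BALBc/J-only locus (110.3 and 63.5), with RNA at -6.49 ± 0.45 (adjusted p = 0.000185). Gbp1, a guanylate-binding protein, had a locus at 65 and 85.8 against 142.5 and 168.3 (-1.04 ± 0.16), with RNA at -4.76 ± 0.91 (adjusted p = 0.0178). The 3 other calls were beside Ifnar1, a chain of the interferon receptor (-1.14 ± 0.26), Aim2, a DNA sensor (-1.29 ± 0.31), and Ifi204 (-1.21 ± 0.32), and RNA of these 3 was not called. RNA of the whole list was called higher in BALBc/J for 4 of 39 genes and in C57BL6/J for 1. Over all genes tested the shares were 2.52% and 1.19%.

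The SLAM and Fc receptor genes had 23.08% of 65 loci different (2 higher in C57BL6/J, 6 C57BL6/J-only, 7 BALBc/J-only). A locus near Slamf7, an activating receptor, was at 127.2 and 64.3 against 27.6 and 25.4 (1.74 ± 0.25), with RNA at 1.50 ± 0.28 (adjusted p = 0.0163). Antigen presentation genes had 21.28% of 47 different (1 higher in C57BL6/J, beside H2-Ob, with 5 C57BL6/J-only and 4 BALBc/J-only). RNA was called in C57BL6/J for 1 of 19 genes and in BALBc/J for 3, against 1.19% and 2.52% of all genes tested. Complement genes had 10.17% of 59 different (1 higher in C57BL6/J, the C1qb promoter, with 2 C57BL6/J-only and 3 BALBc/J-only). Their RNA was called in C57BL6/J for 4 of 19 genes and in BALBc/J for 2. C5ar1, the receptor of the fragment C5a, had a BALBc/J-only locus (65.9 and 65.1) and a C57BL6/J-only locus (26.3 and 31.3), with RNA at 2.60 ± 0.15 (adjusted p = 7.16e-05).

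Signalling and cytokine genes had the lowest shares of different PU.1 loci among these lists. Of 148 loci near inflammatory cytokines and chemokines 7.432% differed (0 and 1 called, 7 and 3 one-strain), the call being beside Il1b, interleukin 1 beta (44.3 and 56.1 against 118.0 and 103.2, -1.13 ± 0.20), whose RNA stood at -0.13. Of 197 near NF-kB and Toll-like receptor genes 7.614% differed (1 and 1 called, 5 and 8 one-strain): Nfkbid, an atypical inhibitor of NF-kB, at 130.0 and 115.5 against 36.8 and 34.9 (1.75 ± 0.22), and Cd40, a co-stimulatory receptor (-1.21 ± 0.31). RNA of 0 of the 34 NF-kB and Toll-like receptor genes was called by limma, and 6 had an unadjusted p under 0.05. Of 31 cytokine and chemokine genes tested, 0 were called higher in C57BL6/J and 3 in BALBc/J, against 1.19% and 2.52% of all genes tested. Lipid handling genes had 12.93% of 147 (0 and 0 called, 10 and 9 one-strain). RNA of 3 of 24 was called, all in C57BL6/J, against 1.19% of all genes tested. Genes picked in an earlier pass for their RNA differences in these same samples had 54.35% of 46 different (3 and 5 called, 11 and 6 one-strain), and that choice makes the figure no independent evidence. Markers of other cells had 28% of 25 different (0 and 0 called, 2 and 5 one-strain).

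The share of loci that differed varied between windows of the genome, and this was not compared with a random spread. In 1069 windows of 1 Mb with at least 20 loci the median share different was 13.33%, against 15.33% (7782) of all members, with 5% to 95% between 3.846% and 32.0%. The highest share was on chromosome 9 at 47000001 to 48000000 bp (mm9), around Cadm1, a cell adhesion gene, with 23 of 29 loci different, 22 of them with more PU.1 in BALBc/J. On chromosome 1 at 122000001 to 123000000, the window of Steap3 and Marco, 13 of 22 differed, all with more in C57BL6/J, and on chromosome 9 at 105000001 to 106000000, with Col6a6, 13 of 20 did, 12 with more in BALBc/J. Other windows were mixed, such as chromosome 19 at 24000001 to 25000000, with 11 and 9. The tenth of windows with the highest share held 19.73% of the different loci and 8.405% of all loci. An excess there follows from ranking windows by that share, so it is a description.

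Neighbouring loci shared a direction only in part. After a locus with more PU.1 in BALBc/J, the next locus within 10 kb had more in BALBc/J in 15.96% and in C57BL6/J in 10.46% of 1673 pairs. After one with more in C57BL6/J the shares were 12.99% for C57BL6/J and 13.13% for BALBc/J of 1409 pairs, and after a locus that did not differ they were 5.318% and 6.103% of 20778. Thus a different locus had a different neighbour more often than the rest, in either direction. These are shares of loci in the same 4 libraries and were not tested. Neighbours of opposite direction may include the 114 pairs, described above, of C57BL6/J-only and BALBc/J-only loci within 500 bp. Those pairs may be shifted peaks, and their part in the shares of opposite direction was not tested.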

How the data were processed

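The authors aligned reads with Bowtie 0.12.7 and called peaks with HOMER on mm9, per the submitters' processing notes. mm9 is a C57BL/6J assembly, and what mapping BALBc/J reads to it does to the values was not measured. Per the file headers, 1 list was called per library, against an input library of the same strain for PU.1, while all p65 lists used a C57BL6/J input. For PU.1 and C/EBPa, the findPeaks score is the count of tags at distinct positions in the deposited peak, and the normalized tag count is a signal, that count per 10 M such tags. The p65 signal deposited by the authors uses all tags, and histone regions vary in length, so they were compared per kb. The deposited expression table gives, per the file headers, log2 of exon tags per 10 M for 29028 transcripts, which were read as 22865 genes.

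Peaks of the 4 PU.1 lists were joined at 1 bp of overlap. Values were tested as log2(tags per 10 M + 1) with limma 3.58.1 (R 4.3.3, trended spread) with terms for treatment and strain (p65: strain only), and genes as log2(tags per 10 M + 10) at 20 or more in at least 2 libraries. Benjamini-Hochberg adjustment ran over everything tested, and calls needed an adjusted p under 0.05 and a difference of at least 1. edgeR 4.0.16 and DESeq2 1.42.0 were run on the tag counts as alternatives. The limma script was run on simulated counts without a treatment effect, which cannot show how far the calls hold in these libraries. Loci were assigned to the nearest transcription start of the expression table. Named were the 10 largest called shared loci per direction, the 10 strongest one-strain loci per strain (1 per 10 kb), the 5 largest called promoter loci per direction, up to 4 genes per list, the windows of 1 Mb with the highest share and the 10 largest RNA differences per direction, of which 1 shared locus is not reported here. The members and lists were chosen with earlier results of these data known. PU.1 libraries of NOD/ShiLtJ and of CB6F1/J F1 Hybrids were not used here.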

Additional observations from a re-analysis of the deposited data

How the results depend on the processing

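The counts of called PU.1 loci (357 with more PU.1 in C57BL6/J, 557 in BALBc/J) depended most on the treatment term and the tool. They were 189 and 280 with 10 tags per 10 M added, 69 and 68 with DESeq2, and 0 and 0 without the treatment term. Leaving out each library, with strain as the only term, gave 0 to 6 and 0 to 15. They stayed within 1.5 times under centring (390 and 496), edgeR (347 and 536, 823 of 883 loci among the 914), edgeR with TMM factors (391 and 455), a minimum mean of 20 (355 and 552) and a 100 bp overlap (344 and 543). Of the 50 named shared loci called, 50 remained with centring, 49 with edgeR, 40 with 10 tags added, 32 of 46 with DESeq2 and 0 without the treatment term, and 0 changed direction.

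One-strain loci numbered 1023 (C57BL6/J) and 1334 (BALBc/J) with both values at 20 or more, 11949 and 15001 from no treatment alone, 14439 and 16279 from KLA alone, and 2421 and 3397 without a peak of the other strain within 500 bp. That last distance is edge to edge, not centre to centre as above, so more loci (477 and 573) had such a peak. A reach of 3000 bp to a start put 10.28% of called loci at promoters in place of 4.814%.

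C/EBPa calls were 256 and 306 when centred and 112 and 294 with 10 tags added, and leaving out each library gave 1 to 3 and 0 to 9. p65 calls for C57BL6/J numbered 131 when centred, and leaving out each library gave 78 to 816 and 54 to 222. With a replicate block p65 gave 2204 and 504. Same-numbered p65 libraries deviated together (correlation 0.65), but with 2 pairs the numbers are not shown to pair the samples. RNA-Seq calls were 155 and 409 with 2 tags added and 59 and 111 with 50, and without a filter limma called 0 and 0 (755 and 2087 at an unadjusted p under 0.05). GRO-Seq calls were 17 and 9 with 50 tags added, 87 and 28 when centred, and 0 and 0 without a filter (261 and 1336 unadjusted), and leaving out each library gave 0 to 0 and 0 to 1 (23 to 60 and 24 to 434 unadjusted). The leave-one-out fits of RNA-Seq and GRO-Seq, and the centred counts at PU.1 loci, were chosen after seeing the data. Where a fit left 1 library of a strain, that library was taken to vary like the rest. The causes of these shifts were not tested.

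With 1 PU.1 library per strain and treatment, strain cannot be told apart from any other difference between those cultures. A locus missing from a list can lie just under the 7 or 8 tags of the weakest listed peak.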
